A study of Mus musculus with 40 samples.

Results

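The aortas of wild-type (WT) C57BL/6J male mice were compared after 24 h and after 2 h of angiotensin-II (Ang-II), to describe how the transcriptional response shifts from its early to its late phase. The comparison rests on 6 of the 40 libraries of the series, 3 at each time, and on the 13738 of 13741 protein-coding genes of the table that passed a filter on low values. Ang-II, the peptide hormone of the renin-angiotensin system, was infused at 1 µg/kg/min from an osmotic minipump placed under the skin, and the members are the libraries that the labels name WT Ang-II 2h and WT Ang-II 24h. They had been operated on some days earlier without a pump, when the other mice of that experiment received cyclosporine A (CsA), so they carried no CsA. Untreated WT aortas (WT basal, 3 libraries), CsA-pretreated mice at the same times (3 libraries each), and Cn-Ctl mice at the same times (3 libraries at 2 h and 2 at 24 h) were used only to place the changes. CsA inhibits the phosphatase calcineurin (Cn). Cn-Ctl mice are the tamoxifen-treated controls of a Cn deletion experiment and are held in a table that was scaled separately.

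Each library was made from a pool of 3 aortas, 9 per condition, after perfusion and removal of the adventitia and the perivascular tissue. The mice at 2 h and at 24 h are different animals. Ang-II-treated WT, CsA and Cn-Ctl mice entered the experiment only if their systolic blood pressure exceeded 130 mmHg, and the pressure was taken with a tail cuff in a restrainer over a warmed surface. Hours of Ang-II and hours since anaesthesia and pump surgery are the same number here and cannot be told apart. The time of day at which the mice were killed was not given in the sources used here. In these bulk samples fewer cells of a type and less RNA per cell cannot be told apart.

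Ang-II binds its type 1 receptor on vascular smooth muscle cells (VSMCs) and raises intracellular calcium. Calcium and the kinases that follow it drive immediate early genes, whose transcription needs no new protein and whose products include many transcription factors and inhibitors of the same kinases. Later phases of such a response typically involve genes for secreted matrix, cytokines, and the machinery that makes and folds proteins. In the aortic wall VSMCs hold the contractile apparatus and also secrete much of the elastic and collagenous matrix.

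Values are the deposited normalized signal, close to CPM. A log2 difference is 24 h minus 2 h on the log2(signal + 0.5) scale, with its standard error (SE) from limma, and a gene is called a differentially expressed gene (DEG) at a Benjamini-Hochberg adjusted p under 0.05 over all 13738 genes. The 2 h libraries held 18.98 to 22.46 M assigned reads and the 24 h libraries 19.57 to 28.06 M. Replicate 2 at 2 h stood apart from the other two 2 h libraries, with a log2 correlation of 0.967 and 0.969 to them against 0.991 between them. It also had a summed signal of 561 for 8 striated muscle markers against 59.3 and 56.2, and of 146 for 8 Schwann cell and nerve markers against 64.1 and 60.0. The defining VSMC genes Acta2 and Tagln were among the most abundant genes in every library, whereas 7 of 10 lymphocyte markers were not listed, Cd3e among them.

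Between 2 h and 24 h of Ang-II 4975 genes differed, 2356 of them higher at 24 h (17.1% of the genes tested) and 2619 lower (19.1%). At an unadjusted p under 0.05 the count was 6218. Without 2 h replicate 2 there were 4823 DEGs. The change was more than 2-fold for 530 higher and 535 lower genes, and more than 8-fold for 20 and 10. In 4729 of the 4975 DEGs the 3 libraries of one time did not overlap those of the other. Such separation, in either direction, was found in 48.3% of all genes tested. The median log2 difference of all genes was -0.01. The shares of 17.1% and 19.1% are the background for the list counts of 24 h against 2 h that follow. Genes were named by a rule on size, separation and list, and 53 further genes, listed with the processing, were picked after their values were seen. Genes named for the largest changes had to be without overlap, so their separation was set by the rule and is not a result. The largest increases were in secreted and macrophage-associated genes and the largest decreases in heat shock and immediate early genes.

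**Figure D1:**
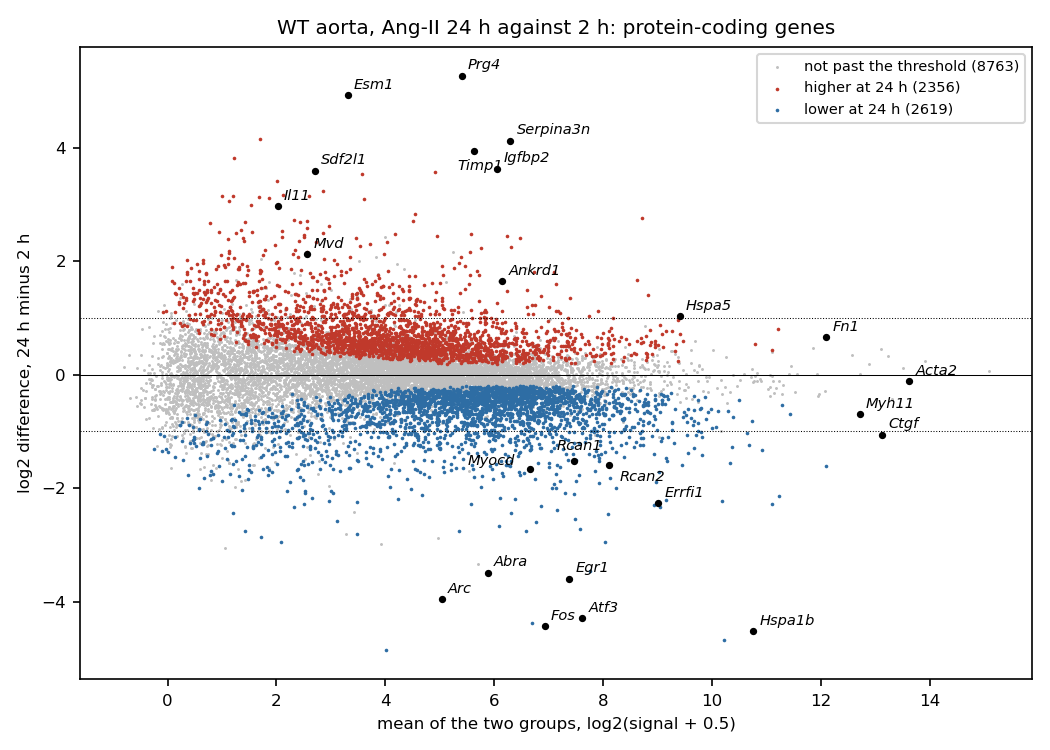
Each point is 1 protein-coding gene in WT aorta, with the mean of both groups as log2(signal + 0.5) on the x axis and the log2 difference, 24 h minus 2 h, on the y axis. Red and blue points are the 2356 higher and 2619 lower DEGs, grey points did not pass, and dotted lines mark a 2-fold change. Prg4 lies highest at 5.27, and Fos and Hspa1b lie below -4.

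Immediate early genes made up one of the groups that fell most. Of 37 measured, 30 were lower at 24 h and 1 was higher, with a median log2 difference of -1.08. Fos, a subunit of the AP-1 transcription factor, had a signal of 426, 675 and 567 at 2 h and 34.7, 28.7 and 15.4 at 24 h, and all 3 late libraries lay far below all 3 early ones (-4.43 ± 0.53, SE, adjusted p = 1.67e-05). For Egr1, a zinc finger factor induced by growth stimuli, the signal was 489, 606 and 609.7 at 2 h and 63.5, 50.6 and 30.9 at 24 h, again without overlap (-3.60 ± 0.29, adjusted p = 7.50e-07). Atf3, a stress-induced repressor, gave 786, 786 and 903 at 2 h and 62.5, 56.0 and 20.7 at 24 h (-4.29 ± 0.44, adjusted p = 5.31e-06). In these 3 genes replicate 3 was the lowest of the 24 h libraries. Fosb (-4.37), Arc (-3.95), Jun (-2.95), Nr4a3 (-2.76) and Btg2 (-2.72) fell as well.

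The 24 h levels of the leading immediate early genes lay near those of untreated aorta. Untreated Fos was 13.3, 18.8 and 55.5, which overlaps the 24 h values, and the log2 difference of 24 h from untreated was 0.04 (adjusted p = 0.96). At 2 h against untreated, 33 of the 37 genes were higher and 0 were lower, where 11.4% of all genes tested were higher and 10% lower. At 24 h against untreated, 20 were higher and 2 lower, where 18.1% and 16.9% of all genes were. These comparisons share libraries with the main one. Some members kept part of the early rise. Ctgf, which encodes a secreted matricellular growth factor, had a signal of 1277, 1655 and 2437 untreated and of 14160.0, 10504 and 13597 at 2 h and 7270.2, 7640.1 and 4033 at 24 h. Its late values lay between the untreated and the early ones without overlap with either (-1.06 ± 0.31, adjusted p = 0.0133), and the call was lost without 24 h replicate 3 or when only the 6 libraries were fitted (adjusted p = 0.064 to 0.0778).

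A few members did not fall. Myc, a factor that drives ribosome and nucleotide synthesis, had a signal of 3.02, 2.72 and 2.17 in untreated aorta and of 41.3, 21.1 and 51.8 at 2 h and 32.7, 47.2 and 21.6 at 24 h, so that both times lay above untreated aorta and overlapped each other (-0.14 ± 0.33, adjusted p = 0.761). Fosl1, another AP-1 subunit, gave 0.256, 0.731 and 0.426 in untreated aorta and 20.7, 8.69 and 23.1 at 2 h and 24.6, 37.2 and 13.9 at 24 h, again with overlap between the times (0.52 ± 0.45, adjusted p = 0.389). Klf10, a TGF-beta-inducible factor, was the member that rose, with 18.2, 20.8 and 18.4 at 2 h and 28.2, 28.1 and 36.8 at 24 h (0.68 ± 0.18, adjusted p = 0.00788). Ier3, an early gene that protects from apoptosis and that the study names, fell from 158, 122 and 137 to 87.8, 77.4 and 48.8 (-0.99 ± 0.25, adjusted p = 0.00521).

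RefSeq promoter windows (GRCm38.p6, 250 bases before to 50 bases after a start, both strands searched) were matched for 27 of the 37 genes. The CArG box, the binding site of serum response factor, was found in 2 of the 27 (7.41%) and in 1.63% of the 10642 matched genes of all 13704 symbols. The cAMP response element TGACGTCA was found in 3 of them (11.1%, against 3.46% of all) and the AP-1 site TGACTCA in 1 (3.70%, against 4.73%). Egr2, an Egr1 relative that fell from 8.65, 11.7 and 10.5 to 3.31, 3.75 and 2.58 (-1.54 ± 0.34), holds a CArG box, and the 250 bases before its start (chr10:67537680-67537929, plus strand) show it in capitals.
Egr2: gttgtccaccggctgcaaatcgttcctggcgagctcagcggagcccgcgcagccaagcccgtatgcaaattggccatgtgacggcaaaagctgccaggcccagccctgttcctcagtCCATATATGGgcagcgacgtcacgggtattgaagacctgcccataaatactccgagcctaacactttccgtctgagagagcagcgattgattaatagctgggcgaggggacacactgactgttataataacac

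**Figure D2:**
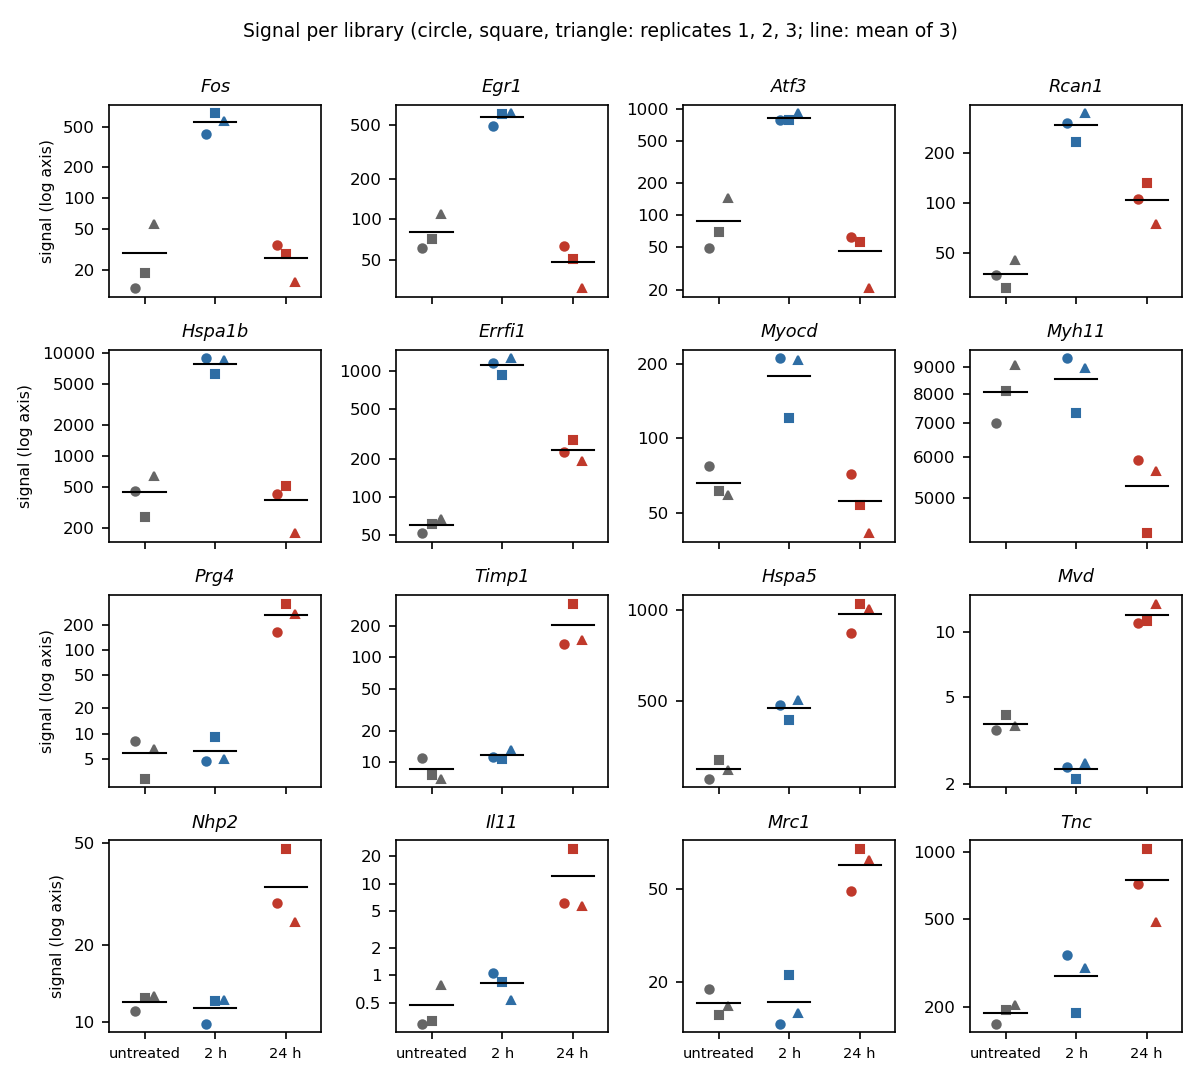
The signal of 16 genes is plotted on a log axis for each library of untreated WT aorta (grey), 2 h (blue) and 24 h (red) of Ang-II, with circles, squares and triangles for replicates 1, 2 and 3 and a line at the mean of 3. Fos, Egr1, Atf3 and Hspa1b peak at 2 h, whereas Prg4, Timp1, Hspa5, Mvd, Nhp2, Il11, Mrc1 and Tnc are highest at 24 h without overlap with the 2 h libraries.

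Genes that restrain signalling followed the immediate early genes in part. Of 32 measured feedback inhibitors of MAP kinase, NF-kB and STAT signalling, 14 were lower and 5 higher at 24 h (median -0.34), against 19.1% and 17.1% of all genes. Errfi1, an inhibitor of the EGF receptor, had a signal of 51.2, 61.3 and 66.6 in untreated aorta and of 1171, 943 and 1269.5 at 2 h and 227, 285 and 192 at 24 h. Its 3 late libraries lay between the untreated and the early ones (-2.27 ± 0.19, adjusted p = 1.26e-06). Dusp1, a phosphatase of MAP kinases, fell from 496, 564 and 509 to 182, 159 and 111 (-1.82 ± 0.31), and Zfp36, which destabilises cytokine mRNAs, from 253, 250.2 and 271 to 86.9, 76.8 and 65.8 (-1.75 ± 0.18). Socs3, an inhibitor of cytokine receptor signalling, was 49.2, 40.9 and 67.1 at 2 h and 45.4, 70.8 and 43.2 at 24 h against 6.56, 5.86 and 9.75 in untreated aorta, so its early and late libraries overlapped (0.01 ± 0.33, adjusted p = 0.98). Among inhibitors of NF-kB, Nfkbiz (-1.32) and Nfkbia (-0.43) fell, while Tnip1 (0.47), Tnfaip3 (0.63) and Nfkbie (1.02) rose. The call of Nfkbia was lost without 24 h replicate 1 or 2 or after quantile normalization (adjusted p = 0.0505 to 0.189), that of Tnfaip3 after quantile normalization (adjusted p = 0.0531) and that of Nfkbie without 24 h replicate 3 (adjusted p = 0.0552).

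Of 24 measured glucocorticoid-responsive genes, 15 were lower at 24 h and 1 was higher (median -0.70). At 2 h 20 of the 24 had been higher than in untreated aorta, where 11.4% of all genes were. Glucocorticoids are adrenal hormones released during stress, and Errfi1, Dusp1 and Nfkbia are also in the list above. Zbtb16, a transcriptional repressor, had a signal of 284, 224 and 257 at 2 h and 48.5, 40.1 and 67.1 at 24 h (-2.31 ± 0.18, adjusted p = 7.50e-07). Fkbp5, a cochaperone of the glucocorticoid receptor, fell from 325, 295 and 279.8 to 85.4, 92.9 and 147 (-1.50 ± 0.20, adjusted p = 4.76e-05), and neither gene had overlapping libraries. The metallothioneins Mt1 (mean 369.9 at 2 h to 296 at 24 h, adjusted p = 0.349) and Mt2 (mean 279 at 2 h to 315 at 24 h, adjusted p = 0.727) did not pass the test. The member that rose was Lcn2, a secreted iron-carrier binding protein that cytokines also induce, with 2.33, 4.80 and 2.08 at 2 h and 35.8, 38.7 and 42.0 at 24 h (3.54 ± 0.47, adjusted p = 4.08e-05).

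Heat shock genes fell more uniformly than any other list examined. Of 26 measured heat shock proteins and cochaperones, 25 were lower at 24 h and 0 were higher (median -1.43), and in all 26 the libraries of both times did not overlap. Hspa1b, an inducible HSP70 chaperone, had a signal of 8934, 6264 and 8697 at 2 h and 434, 514 and 179 at 24 h, about 21.2-fold lower late (-4.52 ± 0.45, adjusted p = 4.28e-06). Its untreated values were 463, 256 and 646, which overlap the late ones. Hspa1a behaved alike (6266, 4508 and 6435 at 2 h and 303, 335 and 105 at 24 h, -4.68 ± 0.46), but Hspa1a and Hspa1b are near-identical copies whose reads the counting may split. Dnajb1, the HSP40 partner of HSP70, fell from 773, 569.5 and 795 to 70.1, 80.7 and 45.2 (-3.46 ± 0.25, adjusted p = 4.33e-07).

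Hspb1, a small heat shock protein that binds actin filaments, stayed above untreated aorta. Its signal was 381, 374 and 683 in untreated aorta and 5893, 3898 and 5464 at 2 h and 1215, 1121 and 1071 at 24 h (-2.14 ± 0.23, adjusted p = 7.77e-06), with a log2 difference of 24 h from untreated of 1.30 (adjusted p = 4.77e-04). Hspa8, the constitutive HSP70, fell from 8254, 5699.6 and 9027 to 2479, 3102 and 1909 (-1.62 ± 0.22). Hsf1, the factor that drives heat shock genes, fell by little (53.5, 43.4 and 55.2 at 2 h and 38.3, 40.5 and 42.8 at 24 h, -0.31 ± 0.10, adjusted p = 0.0232), and its call was lost without 24 h replicate 1 or 2 or 2 h replicate 1 or 3, when only the 6 libraries were fitted or after quantile normalization (adjusted p = 0.0567 to 0.107). Over the list, 24 genes were higher at 2 h than untreated (median 1.53) and 8 at 24 h (median 0.15). Of all genes 11.4% were higher than untreated at 2 h and 18.1% at 24 h. Of the 21 matched members, 4 held a heat shock element in their promoter window (19.0%), against 0.554% of all matched genes. The holders were Chordc1, Hspd1, Hspe1 and Hsph1. No match was found for Hspa1a, Hspa1b, Dnajb1 or Hspb1. Hspe1, the mitochondrial HSP10 cochaperonin, fell from 112, 89.1 and 123 to 52.9, 72.3 and 49.9 (-0.89 ± 0.17, adjusted p = 6.67e-04), and the 250 bases before its start (chr1:55087898-55088147, plus strand) are shown with overlapping matches of the element in capitals.
Hspe1: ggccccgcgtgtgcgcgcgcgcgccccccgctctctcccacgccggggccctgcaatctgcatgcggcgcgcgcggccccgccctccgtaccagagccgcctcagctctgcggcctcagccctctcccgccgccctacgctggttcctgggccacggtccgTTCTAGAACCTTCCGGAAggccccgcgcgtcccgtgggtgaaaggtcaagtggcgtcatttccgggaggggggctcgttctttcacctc

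The predicted protein-coding gene Gm20481 showed the lowest log2 difference of all named genes, with 70.2, 108 and 81.0 at 2 h and 3.00, 2.70 and 1.80 at 24 h (-4.86 ± 0.45, adjusted p = 2.38e-06). It lies at chr17:34969912-34972136 (GRCm38), inside Hspa1a at chr17:34969190-34972156 on the opposite strand, and because the counting is not stated to use strand, its reads cannot be told apart from those of Hspa1a. Among other genes with the largest decreases, Abra, an actin-binding activator of serum response factor signalling, fell from 198, 165 and 211 to 26.4, 16.4 and 10.3 (-3.49 ± 0.34, adjusted p = 3.37e-06). Gprasp2, which sorts G protein-coupled receptors, fell from 30.8, 23.2 and 33.7 to 4.33, 3.17 and 3.65, below its untreated values of 24.2, 19.6 and 14.9 (-2.81 ± 0.19, adjusted p = 3.02e-07). Vwce, Zdhhc23 and Muc4 fell by 2.95, 2.87 and 2.76 on the log2 scale.

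Folding enzymes of the endoplasmic reticulum (ER) moved in the other direction from the cytosolic chaperones. The unfolded protein response raises these enzymes when secretory load exceeds folding capacity. Of 30 measured ER chaperones and unfolded protein response genes, 19 were higher at 24 h and 2 lower (median 0.40). Relative to untreated aorta 23 were higher at 24 h and 6 at 2 h, where 18.1% and 11.4% of all genes were. Hspa5, the ER HSP70 known as BiP, had a signal of 276, 318 and 294 in untreated aorta and of 487, 434 and 504 at 2 h and 844, 1054 and 1013 at 24 h, rising without overlap at each step (1.03 ± 0.14, adjusted p = 4.07e-05). Sdf2l1, a partner of BiP, went from 1.41, 1.40 and 1.21 to 13.7, 25.4 and 29.0, and its 2 h values lay below the untreated ones of 3.33, 2.19 and 3.02 (3.59 ± 0.25, adjusted p = 3.02e-07). Manf, a secreted ER stress protein, rose from 46.7, 38.4 and 48.3 to 97.2, 144 and 134 (1.47 ± 0.14, adjusted p = 3.12e-06).

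In these 3 genes replicate 1 was the lowest of the 24 h libraries. Creld2 (1.32), Hyou1 (1.22), Pdia6 (1.12) and Xbp1 (0.66), the last a transcription factor of the unfolded protein response, rose too. The members that fell were Dnajc10, an ER reductase (-0.66), and Herpud1, which takes part in ER-associated degradation (-0.41), whose call was lost without 24 h replicate 1 or 2 or 2 h replicate 1 or 3, when only the 6 libraries were fitted or after quantile normalization (adjusted p = 0.058 to 0.291) and whose difference was -0.20 after quantile normalization. The ER stress element, counted here as CCACG and CCAAT on the same strand anywhere in the window, was present in 15 of 24 matched members (62.5%), against 13.1% of all matched genes. Of the 17 matched members that rose, 12 held it. The 250 bases before the starts of Hspa5 (chr2:34771840-34772089, plus strand) and Sdf2l1 (chr16:17132384-17132633, minus strand), which had the highest level among the chaperones that rose and the largest rise, are printed with these letters in capitals on either strand (CGTGG and ATTGG where they lie on the other strand).
Hspa5: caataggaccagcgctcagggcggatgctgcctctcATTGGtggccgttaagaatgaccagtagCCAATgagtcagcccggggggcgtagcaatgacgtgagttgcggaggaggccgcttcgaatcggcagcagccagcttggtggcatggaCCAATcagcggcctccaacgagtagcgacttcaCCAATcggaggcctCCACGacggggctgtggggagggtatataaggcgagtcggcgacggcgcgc
Sdf2l1: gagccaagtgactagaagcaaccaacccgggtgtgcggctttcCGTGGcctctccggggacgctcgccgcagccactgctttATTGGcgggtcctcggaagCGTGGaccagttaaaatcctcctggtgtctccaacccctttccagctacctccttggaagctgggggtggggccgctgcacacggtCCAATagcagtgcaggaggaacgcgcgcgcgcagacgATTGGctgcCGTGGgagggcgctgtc

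Other parts of the secretory pathway rose to a smaller degree. Of 43 measured genes of protein translocation and vesicle transport, 21 were higher at 24 h and 1 lower (median 0.22), and the count of higher genes was 33 after quantile normalization. Spcs3, a subunit of signal peptidase, rose from 73.6, 53.2 and 71.9 to 160.4, 205 and 113 (1.23 ± 0.16, adjusted p = 3.77e-05). Sec61b, part of the translocation channel, rose from 15.6, 21.3 and 23.4 to 29.2, 48.4 and 37.0 (0.90 ± 0.17, adjusted p = 8.02e-04). Of 26 genes of the integrated stress response and amino acid synthesis, 7 rose and 4 fell (median 0.17), against 17.1% and 19.1% of all genes. The ones that rose included enzymes and tRNA ligases, such as Psat1 of serine synthesis (6.65, 8.69 and 6.60 at 2 h and 19.5, 33.5 and 20.5 at 24 h, 1.65 ± 0.25) and Asns, which makes asparagine (mean 7.63 at 2 h to 17.7 at 24 h, 1.18 ± 0.27). Ppp1r15a, a phosphatase subunit that ends the response, fell from 172, 153 and 204 to 95.1, 77.9 and 49.3 (-1.29 ± 0.22, adjusted p = 3.96e-04).

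Ribosome synthesis genes were among those that rose together. Of 40 measured nucleolar ribosome biogenesis genes, 29 were higher at 24 h and 0 lower (median 0.47), and 23 were higher without 2 h replicate 2. Nhp2, a protein of the complex that guides pseudouridine formation in ribosomal RNA, had a signal of 9.83, 12 and 12.2 at 2 h and 29.0, 47.3 and 24.5 at 24 h against 11, 12.3 and 12.5 untreated (1.48 ± 0.17, adjusted p = 1.33e-05). Dkc1, the enzyme of that complex, was 12.9, 13.5 and 13.7 at 2 h and 26.4, 33.0 and 30.0 at 24 h (1.12 ± 0.10, adjusted p = 1.99e-06), and its 2 h values lay below all 3 untreated ones (19.4, 19.6 and 18.3). For Nhp2 and Dkc1, as for the median of the list, replicate 2 was the highest 24 h library. Of 58 cytosolic ribosomal proteins 20 were higher and 0 lower (median 0.29), a count that ranged from 9 to 47 over the alternatives and was 47 after quantile normalization. Srm, which makes the polyamine spermidine, rose from 28.1, 20.7 and 27.3 to 62.1, 99.8 and 61.5 (1.51 ± 0.16, adjusted p = 5.47e-06), whereas 5 of 12 Myc and polyamine genes fell, with Sat1, which breaks polyamines down, at -0.91.

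Cholesterol genes had the highest median of the lists that are not cell type markers. Of 24 genes of cholesterol synthesis and uptake, 17 were higher at 24 h and 1 lower (median 0.71). Mvd, the mevalonate pathway decarboxylase, had a signal of 2.39, 2.11 and 2.49 at 2 h and 11, 11.1 and 13.4 at 24 h, with 2 h values below the untreated ones of 3.53, 4.14 and 3.67 (2.12 ± 0.20, adjusted p = 2.84e-06). Fdps, which makes farnesyl diphosphate, rose from 26.1, 25.4 and 27.4 to 74.0, 85.0 and 82.7 (1.59 ± 0.20, adjusted p = 2.18e-05), and neither gene overlapped between the times. Pmvk, a mevalonate pathway kinase, fell from 34.2, 30.9 and 26.0 to 12.2, 15.1 and 20.6 (-0.93 ± 0.16). Among 49 subunits of oxidative phosphorylation 0 were higher and 1 lower (median -0.15). Among 31 glucose uptake, glycolysis and hypoxia genes 5 were higher and 6 lower (median -0.17), against 17.1% and 19.1% of all genes. In the latter list, Pgk1 (0.72) rose, Pfkm (-0.79), Pfkp (-0.70) and Hk2 (-0.69) fell, and Aldoa (-0.17, adjusted p = 0.37) did not pass.

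**Figure D3:**
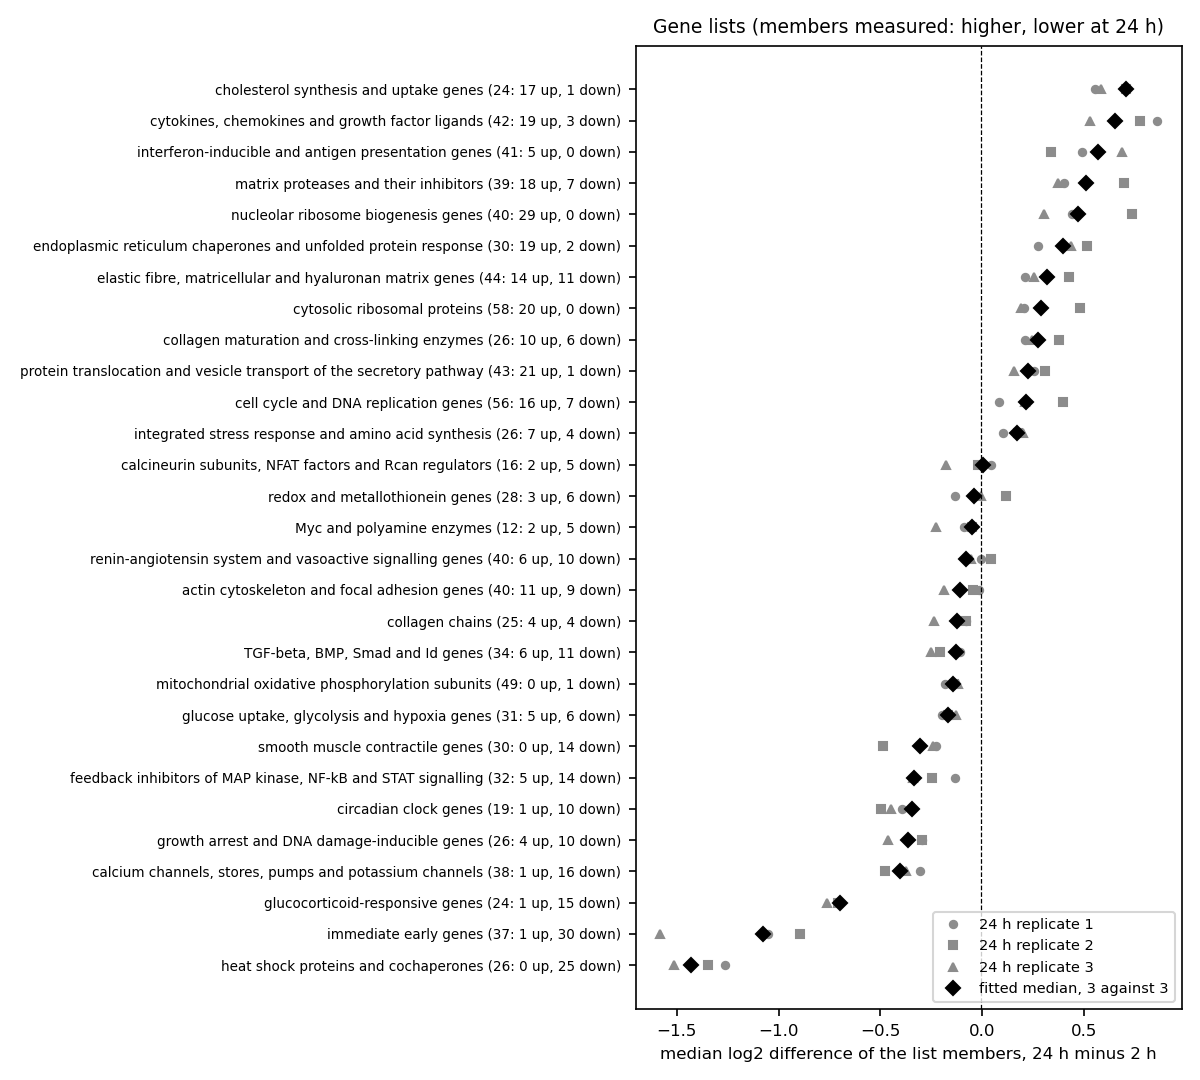
For each gene list the x axis gives the median log2 difference of its members, 24 h minus 2 h, as the fitted median (diamond) and for each 24 h library against the 2 h mean (grey). Labels give the members measured and how many were higher (up) or lower (down), and the dashed line is the median of all genes. Heat shock and immediate early genes lie lowest, at -1.43 and -1.08, and cholesterol genes highest, at 0.71. Cell type marker lists are not plotted.

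Macrophage markers rose between the times. Of 11 measured macrophage markers, 9 were higher at 24 h and 1 lower (median 1.50). At 2 h against untreated only Mertk was higher, where 11.4% of all genes were. Mrc1, the mannose receptor, had a signal of 13.3, 21.4 and 14.8 at 2 h and 48.9, 73.9 and 66.4 at 24 h against 18.7, 14.5 and 15.9 untreated (1.91 ± 0.17, adjusted p = 1.57e-06). Cd68, a lysosomal glycoprotein, was 3.05, 3.97 and 2.70 at 2 h and 8.80, 16.2 and 12.7 at 24 h (1.78 ± 0.23, adjusted p = 3.68e-05). Lyz2, the most abundant of them at 24 h, had 1 outlying early library (37.2, 259 and 41.0 at 2 h and 109, 162 and 175 at 24 h) and passed without 2 h replicate 2 (adjusted p = 2.24e-04) but not with it (adjusted p = 0.154). Mertk, a receptor for the uptake of dying cells, fell from 226, 136 and 231 to 103, 83.0 and 85.5 (-1.09 ± 0.18). Summed over the 11 markers, the signal ranged from 340 to 518 at 2 h and from 447 to 588 at 24 h, so the sums overlapped. Without 2 h replicate 2, 10 of the 11 were higher.

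Other genes known from monocytes and macrophages stood among the largest increases. Ccr2, the chemokine receptor of recruited monocytes, rose from 1.36, 2.55 and 1.36 to 12.3, 37.9 and 17.4 (3.23 ± 0.51, adjusted p = 1.60e-04), and Msr1, a scavenger receptor, from 0.539, 1.56 and 0.745 to 8.13, 18.1 and 11.5 (3.17 ± 0.37, adjusted p = 1.33e-05). Ccl6, a macrophage chemokine, rose from 5.05, 12.2 and 7.68 to 66.4, 138 and 105 (3.57 ± 0.34, adjusted p = 2.66e-06). Arg1, an arginine-degrading enzyme of alternatively activated macrophages, was 0.0257, 0.521 and 0.0257 at 2 h and 3.46, 25.8 and 14.9 at 24 h, where 0.0257 is the value of a gene without reads (4.16 ± 0.61, adjusted p = 9.16e-05). Chil3, a chitinase-like macrophage protein, was 0.0257, 0.137 and 0.0771 at 2 h and 3.46, 15 and 8.24 at 24 h (3.81 ± 0.89, adjusted p = 0.00328). In Ccr2, Msr1, Ccl6, Arg1 and Chil3 replicate 2 was the highest and replicate 1 the lowest of the 24 h libraries.

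Of the other cell type markers, endothelial genes gave 1 higher of 10, Emcn (1.27 ± 0.23, adjusted p = 5.16e-04), and neutrophil genes 1 higher of 7, Csf3r (1.51 ± 0.47, adjusted p = 0.0184), lost without 24 h replicate 2 or 2 h replicate 1 or 3 (adjusted p = 0.0591 to 0.0761), with Ly6g and Camp not listed and a summed neutrophil signal of 2.28 to 5.13 at 2 h and 5.41 to 13.6 at 24 h. Adventitial fibroblast markers gave 4 higher and 1 lower of 10, led by Ly6a (1.38 ± 0.26, adjusted p = 7.91e-04), although the adventitia had been removed. Adipose markers gave 1 higher of 9, Retn (1.25), a call lost without 24 h replicate 1, 2 or 3 or 2 h replicate 1 or 2, in edgeR, without the trend, after quantile normalization or with the replicate block (adjusted p = 0.0501 to 0.143), and erythrocyte and striated muscle markers 0 of 6 and 0 of 8. The striated muscle sum was also high in 24 h replicates 1 and 2 (491 and 532, against 135 in replicate 3). Of 8 Schwann cell markers 1 was lower, and none was without 2 h replicate 2 or without any 1 of the 24 h libraries. Of 3 measured lymphocyte markers Cd8a passed as lower with overlapping times (8.95, 0.521 and 3.26 at 2 h and 0.231, 0.899 and 0.445 at 24 h, -1.74 ± 0.61), a call lost without 24 h replicate 1 or 3 or 2 h replicate 1 or 3, when only the 6 libraries were fitted or after quantile normalization (adjusted p = 0.0604 to 0.207), and its difference was -0.99 without 2 h replicate 1. Of 8 smooth muscle markers Myh11 and Myocd were lower.

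Secreted signals rose at 24 h in a large share of their list. Of 42 measured cytokines, chemokines and growth factor ligands, 19 were higher and 3 lower (median 0.65). Il11, an interleukin-6 family cytokine of stromal cells, had a signal of 1.05, 0.850 and 0.540 at 2 h and 6.23, 24.2 and 5.75 at 24 h (2.97 ± 0.41, adjusted p = 6.42e-05). Il33, an alarmin released by damaged cells, was 11.2, 16.9 and 9.95 at 2 h and 58.1, 100.2 and 56.4 at 24 h (2.44 ± 0.27, adjusted p = 1.06e-05). In both the times did not overlap and 24 h replicate 2 was the highest library.

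Chemokines of several kinds were involved. Ccl2, which attracts monocytes, rose from 0.385, 2.66 and 1.00 to 5.72, 15 and 7.99 (2.54 ± 0.50, adjusted p = 0.00102). Cxcl12, a stromal chemokine, rose from 87.7, 108 and 102 to 183, 314 and 161 (1.08 ± 0.21, adjusted p = 9.54e-04). Cxcl14 (3.41 ± 0.43) and Cxcl5 (3.14 ± 0.50) rose from levels below 1.5 in every 2 h library. Il6 reached 6.33, 5.55 and 1.69 from values under 0.7 (2.05 ± 0.48, adjusted p = 0.00367), and missed the threshold without a pseudocount (adjusted p = 0.117) and with TMM scaling (adjusted p = 0.121). The macrophage markers given above moved with this list, and their part in it was not tested. The number of higher members ranged from 8 to 20 over the alternatives, with 8 when only genes of a mean signal of at least 5 were kept.

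The growth factors that had risen early behaved differently. Tgfb2, a TGF-beta ligand, fell from 469, 245 and 428 to 201, 149.6 and 123 (-1.24 ± 0.28, adjusted p = 0.00272), against 112, 101 and 107 untreated. Hbegf, an EGF receptor ligand, had a mean of 34.6 untreated and went from 155 at 2 h to 124 at 24 h (-0.37 ± 0.32, adjusted p = 0.4). Bdnf, a neurotrophin, went from 66.8 at 2 h to 50.5 at 24 h (-0.47 ± 0.35, adjusted p = 0.313), and neither of these passed.

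Some matrix genes rose and others fell. Of 44 elastic fibre, matricellular and hyaluronan matrix genes, 14 were higher and 11 lower at 24 h (median 0.32), against 17.1% and 19.1% of all genes. Prg4, which encodes the lubricant proteoglycan lubricin, had the largest increase of all genes that met the naming rule. Its signal was 8.26, 2.90 and 6.51 in untreated aorta and 4.75, 9.18 and 4.91 at 2 h and 162, 358 and 268 at 24 h, about 41.8-fold higher late than early (5.27 ± 0.41, adjusted p = 6.84e-07). Tnc, the matricellular protein tenascin-C, was 344, 189 and 301 at 2 h and 721, 1032 and 486 at 24 h (1.40 ± 0.25, adjusted p = 5.05e-04), and Spp1, osteopontin, was 7.31, 5.62 and 6.55 at 2 h and 20.0, 58.4 and 34.9 at 24 h (2.33 ± 0.30, adjusted p = 3.47e-05). None of these 3 overlapped between the times. Fn1, fibronectin, rose from a mean of 3538 at 2 h to 5456 at 24 h (0.66 ± 0.24, adjusted p = 0.0392), and its highest early library (4515) lay above its lowest late one (4400.2). That call was lost without 24 h replicate 1 or 2 or 2 h replicate 2 or 3 or when only the 6 libraries were fitted (adjusted p = 0.0659 to 0.181).

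The members that fell included structural partners of elastic fibres. Fbln5, a fibulin needed for elastic fibre assembly, fell from 542, 478 and 535 to 231, 203 and 240.3, and its untreated values of 559, 493 and 514 were like the early ones (-1.20 ± 0.18, adjusted p = 1.36e-04). Tnxb (-1.10) and, except after quantile normalization (adjusted p = 0.0526), Ltbp4 (-0.92) fell too. Eln, elastin itself, had 3535, 2366 and 3610.2 at 2 h and 4771, 4486 and 3794 at 24 h and did not pass (0.48 ± 0.27, adjusted p = 0.187, and adjusted p = 0.00394 after quantile normalization). Of 25 collagen chains 4 rose and 4 fell (median -0.12), against 17.1% and 19.1% of all genes. After quantile normalization 9 rose and 5 fell (median 0.21). Col8a1, a short-chain collagen of remodelling vessels, rose from 25.6, 22 and 25.0 to 47.3, 53.0 and 62.5 (1.14 ± 0.18), and Col4a5, a basement membrane chain, fell from 479.9, 356 and 412 to 227, 174 and 217 (-1.01 ± 0.23). Col1a1 rose by a smaller amount (1560.3, 1378 and 1456 at 2 h and 1988, 2305 and 2068 at 24 h, 0.53 ± 0.17, adjusted p = 0.0191), and lost its call without 24 h replicate 2 or 2 h replicate 2 or 3 (adjusted p = 0.0511 to 0.0737). Col3a1 missed the threshold (0.41 ± 0.16, adjusted p = 0.0565) and passed it in DESeq2 (adjusted p = 0.0173) and in edgeR (adjusted p = 0.0474).

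Of 26 collagen maturation and cross-linking enzymes 10 rose and 6 fell (median 0.28), against 17.1% and 19.1% of all genes. Loxl4, a lysyl oxidase relative, rose from 4.34, 5.89 and 3.88 to 24.6, 33.9 and 17.1 (2.27 ± 0.26, adjusted p = 1.31e-05). Lox itself had 156, 138 and 134 in untreated aorta and 639, 348 and 604 at 2 h and 763, 761 and 549 at 24 h, so that most of its difference from untreated aorta was already present at 2 h (0.42 ± 0.22, adjusted p = 0.154, and adjusted p = 0.00715 after quantile normalization). Among 39 matrix proteases and their inhibitors 18 rose and 7 fell (median 0.51), against the same shares of all genes. Timp1, an inhibitor of matrix metalloproteinases, had 11.2, 10.7 and 13.1 at 2 h and 134, 324 and 147 at 24 h (3.94 ± 0.29, adjusted p = 4.56e-07). Serpina3n, a serine protease inhibitor, was 14.6, 24.4 and 16.3 at 2 h and 256, 320.2 and 405 at 24 h (4.12 ± 0.34, adjusted p = 9.88e-07), and Mmp3, stromelysin 1, was 30.4, 39.3 and 26.6 at 2 h and 147, 189.8 and 187 at 24 h (2.44 ± 0.27, adjusted p = 9.00e-06), both far above their early levels in every library. Adamts1, a proteoglycan-cleaving protease, had risen early and fell from 1648, 1356 and 1416 to 544, 683 and 447 (-1.42 ± 0.20). Ctss, a macrophage cathepsin, was 4.95, 6.94 and 4.14 at 2 h and 18.9, 38.2 and 29.7 at 24 h (2.30 ± 0.29), and macrophage markers rose at the same time.

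Further secreted genes with large increases were Esm1 and Igfbp2. Esm1, an endothelial proteoglycan, had a signal of 0.898, 1.51 and 1.21 at 2 h and 40.5, 97.7 and 33.1 at 24 h (4.93 ± 0.33, adjusted p = 3.02e-07). Igfbp2, a binding protein of insulin-like growth factors, was 18.4, 16.3 and 19.7 at 2 h and 301, 239 and 168 at 24 h (3.63 ± 0.32, adjusted p = 1.81e-06). Fgl1, a fibrinogen-like protein, was 0.231, 0.247 and 0.283 at 2 h and 3.51, 7.38 and 8.88 at 24 h (3.15 ± 0.49). The naming rule required that the times not overlap in these 3 genes. Their 2 h values were close to the untreated ones, which for Igfbp2 were 18.5, 15.7 and 22.2.

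Genes of the contractile apparatus were lower at 24 h in part. Of 30 measured smooth muscle contractile genes 14 were lower and 0 higher (median -0.31), where after quantile normalization 9 were lower and 3 higher (median -0.11). Myocd, the coactivator of serum response factor that drives this program, had a signal of 77.1, 61.4 and 59.3 in untreated aorta and of 210.2, 121 and 207 at 2 h and 71.7, 54.1 and 41.4 at 24 h, so that a rise at 2 h was followed by late values that overlap the untreated ones (-1.67 ± 0.28, adjusted p = 2.73e-04). Myh11, the smooth muscle myosin heavy chain, was 9371, 7318 and 8959 at 2 h and 5945, 4263 and 5642 at 24 h (-0.70 ± 0.21, adjusted p = 0.0157), without overlap and with late values below all 3 untreated ones of 7022, 8104 and 9098, a call lost without 24 h replicate 2 or 2 h replicate 1 or 3 or when only the 6 libraries were fitted (adjusted p = 0.0539 to 0.105). Myl9, the regulatory myosin light chain, fell from 3667, 3078 and 3754 to 2411, 1711 and 2465 (-0.69 ± 0.18, adjusted p = 0.00738). Itga8, an integrin of VSMCs, fell from 3548, 2536 and 3135 to 1362, 984 and 1312 (-1.33 ± 0.21), and Ppp1r12a, the myosin phosphatase targeting subunit, from 1348, 1089.5 and 1359.6 to 602, 416 and 549.7 (-1.29 ± 0.15).

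The most abundant thin filament genes did not share this. Acta2, the smooth muscle actin, had 13771, 11194 and 14385 at 2 h and 15162, 10376 and 10996 at 24 h (-0.12 ± 0.27, adjusted p = 0.766), and Tagln, transgelin, had 6943, 5881 and 7364 at 2 h and 7988, 5948 and 6477 at 24 h (0.01 ± 0.21, adjusted p = 0.973), both with overlapping libraries. Cnn1 (-0.25 ± 0.18), Tpm1 (-0.13 ± 0.17) and Cald1 (-0.08 ± 0.15) did not pass either, and after quantile normalization Cald1 was higher (0.24, adjusted p = 0.0476). Of 40 actin cytoskeleton and focal adhesion genes 11 were higher and 9 lower (median -0.11), against 17.1% and 19.1% of all genes. After quantile normalization 17 were higher and 6 lower (median 0.20). Cotl1, which binds filamentous actin (1.70 ± 0.33), Ankrd1, a stretch-responsive nuclear and sarcomeric protein (34.7, 42.4 and 39.5 at 2 h and 164, 135 and 83.6 at 24 h, 1.65 ± 0.45), and Tpm4, a non-muscle tropomyosin (366, 306 and 387 at 2 h and 589, 715 and 529 at 24 h, 0.79 ± 0.14), rose. Flnc, a muscle filamin, fell from 2835, 1681 and 3004 to 1350.0, 1201 and 663 (-1.24 ± 0.32).

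Ion transport genes were also lower at 24 h in part, and their list overlaps the contractile one. Of 38 calcium channels, stores, pumps and potassium channels, 16 were lower and 1 higher at 24 h (median -0.40). Cacna1d, an L-type calcium channel, fell from 30.6, 27.6 and 31.4 to 9.92, 7.45 and 10.2, below untreated values of 27.5, 25.4 and 25.2 (-1.66 ± 0.18, adjusted p = 6.48e-06). Cacna1c, the main vascular L-type channel, fell from 138, 104 and 121 to 81.4, 70.6 and 71.9 (-0.69 ± 0.13, adjusted p = 7.53e-04). Abcc9, the sulfonylurea receptor of vascular KATP channels, fell from 356, 273 and 310.4 to 152, 141 and 156 (-1.06 ± 0.10), and Kcnma1, the pore of the large-conductance calcium-activated potassium channel, from 70.8, 47.1 and 58.6 to 33.5, 25.3 and 37.0 (-0.87 ± 0.16). In these 4 genes the times did not overlap. Orai1, a store-operated channel, rose (0.61 ± 0.17, adjusted p = 0.0128), a call lost without 24 h replicate 2 or 2 h replicate 3 (adjusted p = 0.0522 to 0.0723). At 2 h against untreated, 2 genes of the list were higher and 3 lower, where 11.4% and 10% of all genes were. At 24 h against untreated, 2 were higher and 15 lower, where 18.1% and 16.9% of all genes were.

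**Figure D4:**
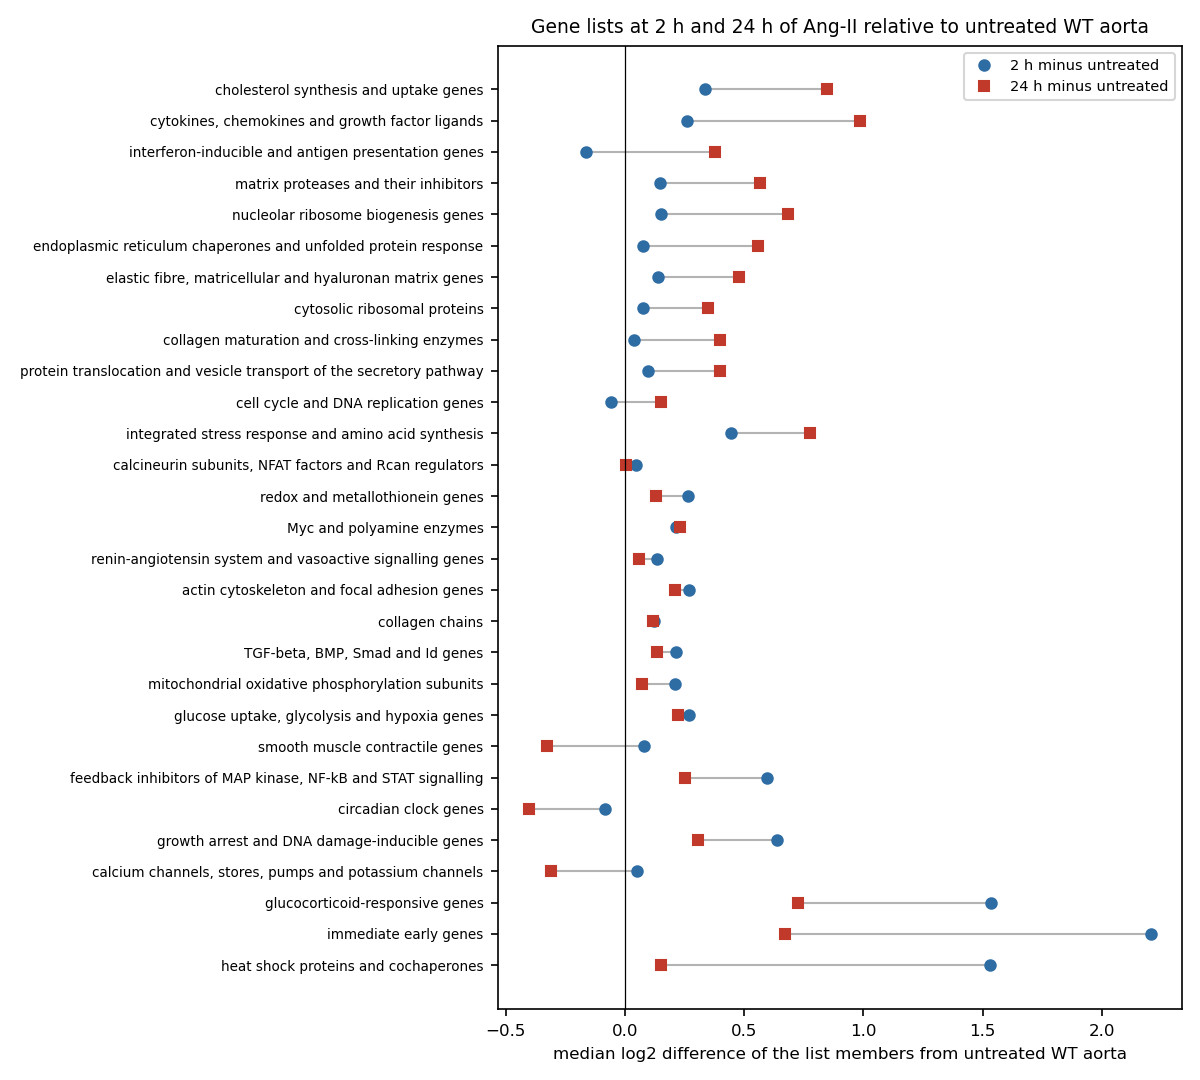
The x axis gives the median log2 difference of each gene list from untreated WT aorta at 2 h (blue circles) and at 24 h (red squares), joined by a line. Both times share the untreated libraries. Immediate early genes moved from 2.20 at 2 h to 0.67 at 24 h and heat shock genes from 1.53 to 0.15, while contractile and channel genes lie near 0 at 2 h and below it at 24 h.

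Agtr1a, a type 1 receptor gene, was low in every library (1.82, 1.73 and 2.13 at 2 h and 1.21, 2.93 and 1.48 at 24 h) and did not pass (adjusted p = 0.929). Agtr1b, the other type 1 receptor gene, fell from 7.52, 4.63 and 6.40 to 3.05, 3.58 and 3.37 (-0.78 ± 0.27, adjusted p = 0.0329), a call lost without 24 h replicate 1, 2 or 3 or 2 h replicate 1 or 3 (adjusted p = 0.0602 to 0.13). Ace, the converting enzyme, fell from 408, 366 and 381 to 241, 258 and 300.1 (-0.54 ± 0.15, adjusted p = 0.00946, and adjusted p = 0.193 after quantile normalization). Edn1, the vasoconstrictor endothelin-1, rose from 18.3, 16.3 and 21.4 to 32.6, 37.5 and 31.0 (0.84 ± 0.18, adjusted p = 0.00213). Over the 40 renin-angiotensin and vasoactive signalling genes 6 rose and 10 fell (median -0.08), against 17.1% and 19.1% of all genes. Ptgs2, the inducible prostaglandin synthase, was 193, 195 and 196 at 2 h and 221, 300.1 and 75.2 at 24 h against 16.7, 26.3 and 42.2 untreated, with a late spread that covers the early values (-0.19 ± 0.44, adjusted p = 0.771). Gja1, connexin 43, was 321, 259.9 and 342 at 2 h and 273, 285 and 132 at 24 h (-0.49 ± 0.23, adjusted p = 0.107) and passed without 24 h replicate 2 (adjusted p = 0.0457).

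Of 16 genes of calcineurin, NFAT and the Rcan regulators 2 rose and 5 fell (median 0.00), against 17.1% and 19.1% of all genes. Rcan1, a calcineurin regulator whose transcription calcineurin itself induces, had 36.9, 30.7 and 45.2 in untreated aorta and 304, 234 and 349 at 2 h and 107, 132 and 74.7 at 24 h. The 3 groups did not overlap, and the late level stayed between the others (-1.52 ± 0.21, adjusted p = 6.14e-05). Rcan2, its relative, was not higher at 2 h and fell from 537, 366 and 548 to 170.0, 142 and 164, below 369.7, 492 and 496 untreated (-1.58 ± 0.27, adjusted p = 3.02e-04). Nfatc1, a transcription factor activated by calcineurin, fell from 55.9, 40.4 and 48.5 to 24.6, 27.9 and 20.9 (-0.96 ± 0.14). The subunit genes Ppp3r1 (99.7, 82.6 and 94.9 at 2 h and 87.5, 87.7 and 80.2 at 24 h, -0.11 ± 0.10, adjusted p = 0.408), Ppp3ca (0.08 ± 0.10), Ppp3cb (-0.08 ± 0.09) and Ppp3cc (0.12 ± 0.12) did not pass.

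Of 34 TGF-beta, BMP, Smad and Id genes 6 rose and 11 fell (median -0.13), against 17.1% and 19.1% of all genes. Tgfbr1, the type I receptor, fell from 525, 301 and 425 to 157, 109 and 116, with untreated values of 169, 180.4 and 162 (-1.69 ± 0.19, adjusted p = 1.07e-05). Smad3, a receptor-activated mediator, rose from 21.4, 31.9 and 16.2 to 32.1, 47.5 and 38.5 (0.79 ± 0.22, adjusted p = 0.0116), a call lost without 24 h replicate 2 or 2 h replicate 3 (adjusted p = 0.0631 to 0.0716). Smad2, its partner, had 22.3, 22.5 and 22.6 at 2 h and 28.3, 26.5 and 19.1 at 24 h and did not pass (0.11 ± 0.13, adjusted p = 0.559). Bmp4, a BMP ligand, rose from a mean of 21.7 at 2 h to 49.8 at 24 h (1.18 ± 0.24), and Id1, a target of BMP signalling, fell from a mean of 101 at 2 h to 59.5 at 24 h (-0.76 ± 0.14).

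Of 19 circadian clock genes 10 were lower and 1 higher at 24 h (median -0.34). At 2 h 5 were lower and 5 higher than in untreated aorta, where 10% and 11.4% of all genes were. Per2, a clock repressor, fell from 248, 152 and 194 to 87.9, 89.7 and 129 (-0.94 ± 0.19, adjusted p = 0.00143), and Nr1d2, a nuclear receptor of the clock, from 269, 221 and 255 to 153, 136 and 129.6 (-0.83 ± 0.14, adjusted p = 3.26e-04). Dbp, a clock output factor, had 474, 421 and 449 in untreated aorta and 124, 163 and 138 at 2 h and 106, 125 and 141 at 24 h, so that it was low at both times (-0.19 ± 0.18, adjusted p = 0.427). Arntl, which encodes BMAL1, was 0.966, 0.768 and 0.710 in untreated aorta and 5.88, 5.46 and 6.40 at 2 h and 13.6, 8.46 and 5.82 at 24 h (0.54 ± 0.39, adjusted p = 0.308). An E-box (CACGTG) was present in 5 of the 16 matched clock genes (31.2%), against 11.3% of all matched genes. The ER stress element, as counted above, was also present in 5 of the 16 (31.2%), against 13.1% of all matched genes. The hour of death was not given, and clock phase and Ang-II time cannot be told apart.

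In the cell cycle list of 56 genes 16 were higher and 7 lower (median 0.21), against 17.1% and 19.1% of all genes. Those that rose included Gins1, a subunit that activates the replicative helicase (0.744, 0.411 and 0.488 at 2 h and 2.44, 1.81 and 2.87 at 24 h, 1.45 ± 0.31), and Cdt1, which loads it (0.98 ± 0.28, lost without 24 h replicate 2 or 2 h replicate 1 (adjusted p = 0.0595 to 0.0814)). Mki67, a proliferation marker, fell (8.34, 3.32 and 4.19 at 2 h and 1.31, 2.70 and 2.80 at 24 h, -1.02 ± 0.37, adjusted p = 0.0392), a call lost without 24 h replicate 1 or 2 or 2 h replicate 1 or 3, when only the 6 libraries were fitted or with the replicate block (adjusted p = 0.0521 to 0.199). The mitotic genes Top2a (-0.72), Kif11 (-0.61) and Ccnb2 (-0.60) did not pass, and Top2a and Kif11 passed without 24 h replicate 3 (adjusted p = 0.0308 and 0.0486). Of 26 growth arrest and DNA damage-inducible genes 4 rose and 10 fell (median -0.37), against the same shares of all genes. Among them Trp53inp1, a p53 target, went from 378, 349 and 359 to 118, 61.6 and 80.0 (-2.11 ± 0.18). Cdkn1a, the inhibitor p21, had 141, 123 and 162 at 2 h and 119, 105 and 98.7 at 24 h against 27.1, 29.8 and 32.7 untreated (-0.39 ± 0.19, adjusted p = 0.111, and adjusted p = 0.0395 when only the 6 libraries were fitted).

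Of 28 redox and metallothionein genes 3 rose and 6 fell (median -0.04), against 17.1% and 19.1% of all genes. Nox4, the NADPH oxidase of VSMCs, fell from 430.3, 271 and 374 to 234, 149.7 and 247 (-0.78 ± 0.23, adjusted p = 0.0132), a call lost without 24 h replicate 2 or 2 h replicate 1 or after quantile normalization (adjusted p = 0.0688 to 0.0892). Cybb, the phagocyte NADPH oxidase subunit, rose from a mean of 3.13 at 2 h to 7.49 at 24 h (1.20 ± 0.37), as the macrophage markers did, and lost its call without 24 h replicate 3 or 2 h replicate 1 or 3 (adjusted p = 0.0556 to 0.0887). Of 41 interferon-inducible and antigen presentation genes 5 were higher and 0 lower (median 0.57), below the background of higher genes in count although most differences were positive. The count went from 0 to 14 over the alternatives and was 14 without 2 h replicate 2. Igtp, an interferon-inducible GTPase, shows the spread, with 4.64, 7.92 and 5.58 at 2 h and 28.4, 8.12 and 18.5 at 24 h (1.39 ± 0.56, adjusted p = 0.064), and it passed without 24 h replicate 2, in DESeq2 or when only the 6 libraries were fitted (adjusted p = 0.0274 to 0.0321).

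The same interval was measured in mice that share no library with these. After CsA pretreatment 1021 genes were higher (7.43%) and 1452 lower (10.6%) at 24 h than at 2 h. The test of the difference itself, WT change minus CsA change, called 13 genes higher (0.0946%) and 16 lower (0.116%) in limma, with 1708 genes at an unadjusted p under 0.05. These 29 calls depended on single libraries and on the tool, with 0 to 157 when 1 library was left out (157 without CsA 24 h replicate 3, 86 without WT 24 h replicate 3, and 4 without WT 2 h replicate 2), 13 in edgeR and 255 in DESeq2. The 530 genes that rose more than 2-fold in WT, with a median of 1.34, had a median of 0.68 after CsA, and 513 of them changed in the same direction. The 535 that fell, with a median of -1.28, had -0.82, and 14 had a positive sign. These genes were chosen for a large change in WT, which favours WT in this contrast.

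Genes chosen in the Cn-Ctl mice avoid that choice. Between 2 h and 24 h Cn-Ctl mice had 280 higher (1.94%) and 783 lower (5.43%) of 14424 genes tested, with 2 libraries at 24 h. Without 24 h replicate 3 this count of 1063 was 200, and without 2 h replicates 1 and 2 it was 669 and 621. Of the Cn-Ctl genes that rose more than 2-fold, 203 were measured in the CsA experiment, with a median of 0.62 in WT and 0.47 after CsA, and the WT change was larger in 146. Of those that fell, 492 were measured, with medians of -1.02 and -0.72, and the WT change was larger in 386. The interaction test called 1 and 4 of these genes. Tissue markers also differed between CsA and WT mice. Summed adipose signal after CsA was 2671 to 7693 at 2 h and 3092 to 8771 at 24 h. In WT it was 1415 to 2363 and 2102 to 2432. Striated muscle sums at 24 h were lower after CsA (92.9 to 116) than in WT (135 to 532). The part of tissue content in these contrasts was not tested.

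Single genes show the same interval side by side. Timp1 reached means of 202 in WT and 41.0 after CsA at 24 h, from 11.7 and 12.2 at 2 h, and the interaction was 2.21 ± 0.42 (adjusted p = 0.0481). Hspa1b had a log2 difference of -4.52 in WT, -4.74 after CsA and -4.07 in Cn-Ctl, and Fos of -4.43, -2.18 and -2.72. Prg4 gave 5.27, 3.09 and 2.04. The WT minus CsA interaction did not pass for Hspa1b, Fos or Prg4. By lists, heat shock genes had 25, 24 and 19 lower members of 26 in WT, CsA and Cn-Ctl, and immediate early genes 30, 27 and 24 of 37. Ribosome biogenesis genes had 29, 5 and 2 higher members of 40, and macrophage markers 9, 6 and 0 of 11. Of all genes 17.1%, 7.43% and 1.94% were higher and 19.1%, 10.6% and 5.43% lower in WT, CsA and Cn-Ctl. The median SE was 0.15, 0.15 and 0.36. In Cn-Ctl 28 of the 40 ribosome biogenesis genes (median 0.28) and 10 of the 11 macrophage markers (median 0.48) had positive differences. Whether these list counts differ between the mice was not tested.

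**Figure D5:**
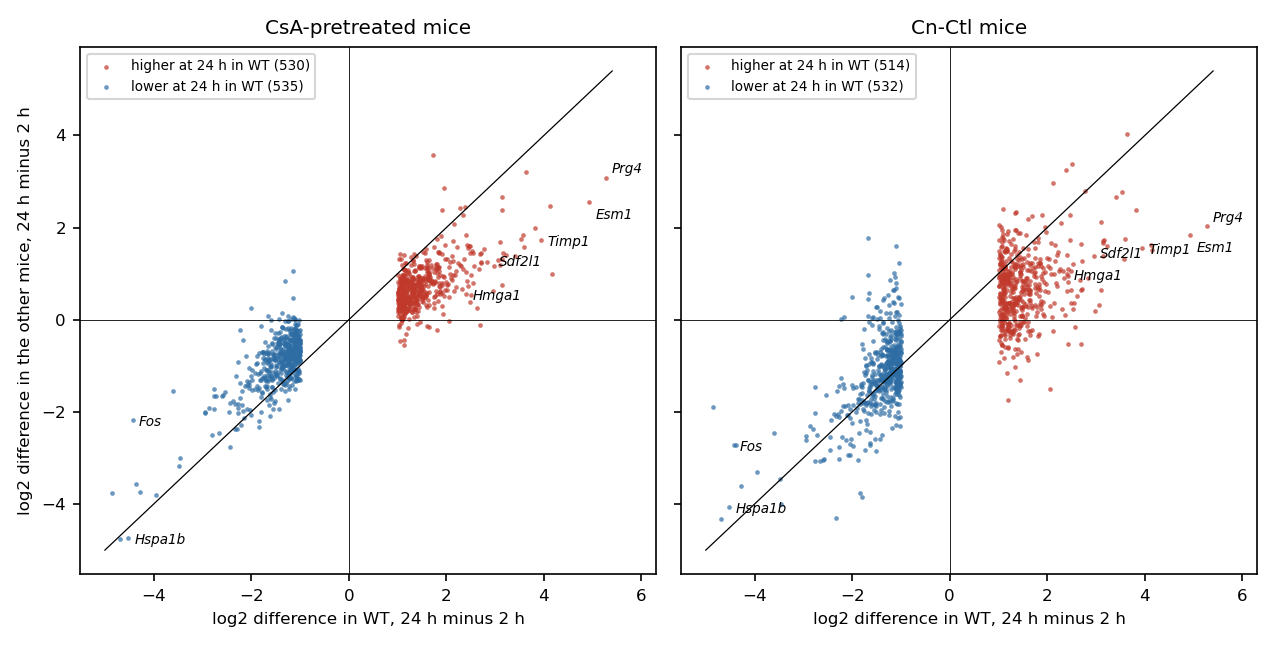
For genes that changed more than 2-fold in WT, the log2 difference, 24 h minus 2 h, in WT (x axis) is plotted against that in CsA-pretreated mice (left, y axis) and in Cn-Ctl mice (right). Red and blue points were higher and lower at 24 h in WT, and the diagonal marks equal change. Hspa1b lies near the diagonal in both panels, and Timp1, Sdf2l1 and Prg4 lie below it.

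Among 1656 genes of other biotypes fitted together with the protein-coding ones, 90 were higher and 174 lower at 24 h. Of the protein-coding genes in their own fit, 17.1% were higher and 19.1% lower. The processed transcript AI506816 rose from 65.3, 52.3 and 72.4 to 194, 248 and 168 without overlap (log2 difference 1.67 ± 0.14, adjusted p = 9.54e-07). The long noncoding RNA gene Gm26825 fell from 175, 229 and 210.1 to 45.5, 42.5 and 42.4 (-2.21 ± 0.35, adjusted p = 1.95e-04). The antisense gene Gm10501 fell from 138, 191 and 160.1 to 7.72, 8.23 and 4.29 (-4.53 ± 0.33), and it overlaps the heat shock gene Hspa1l at chr17:34972703-34979285, so that their reads cannot be told apart.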

How the data were processed

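RNA was sequenced from pools of 3 aortas, with 3 libraries per WT and CsA group. Per the labels and the submitters' processing notes, the authors aligned reads with Bowtie 0.12.7 to GRCm38 and counted them with RSEM 1.16. The deposited normalized signal is the authors' read count plus 0.5 with a scaling close to CPM, whose method was not given in the sources used here. Summed over the listed genes it was 1040808 to 1154874 in the WT 2 h libraries and 952269 to 1003928 in the WT 24 h libraries. It was therefore not scaled by assigned reads alone. Whole reads were recovered from it within 0.01. Columns of fold changes and p-values were not used.

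Protein-coding genes with a signal of at least 1 in 2 libraries were fitted as log2(signal + 0.5) with limma 3.58.1 in R 4.3.3, with a mean for each of the 6 groups of the CsA experiment, an intensity trend and Benjamini-Hochberg adjustment at 0.05. Cn-Ctl libraries were fitted in their own table. edgeR 4.0.16 (quasi-likelihood) and DESeq2 1.42.0 on recovered reads, other scalings, pseudocounts and filters, a replicate block, and each library left out were alternatives. The fits were tested on simulated data. Promoters are from RefSeq (GRCm38.p6). Replicates are separate pools, so p-values measure the spread between pools, and the depth of 18.98 to 28.06 M reads limits genes near a signal of 0.

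The members and lists were chosen with earlier results of these data known. The rule named the 15 genes with the largest change in each direction among DEGs with a mean signal of at least 5 and no overlap between times, up to 5 DEGs and the 2 most abundant genes per list, 10 genes the study names, the 5 largest interactions with CsA, and up to 5 genes of other biotypes per direction, of which some are not reported here. The 53 genes named after their values were seen are Ace, Agtr1b, Arntl, Bdnf, Cacna1c, Cald1, Ccnb2, Cdkn1a, Cnn1, Col1a1, Col3a1, Cxcl12, Dbp, Dnajc10, Egr2, Eln, Fbln5, Fkbp5, Fosl1, Hbegf, Herpud1, Hsf1, Hspb1, Hspe1, Id1, Igtp, Il33, Il6, Kcnma1, Kif11, Klf10, Ltbp4, Mt1, Mt2, Myc, Myl9, Nfkbia, Nfkbie, Nr1d2, Nr4a3, Orai1, Pmvk, Smad3, Socs3, Tagln, Tnc, Tnfaip3, Tnip1, Tnxb, Top2a, Tpm1, Tpm4 and Xbp1.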

Additional observations from a re-analysis of the deposited data

Results flagged for a closer look

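The change from 2 h to 24 h differed between WT and CsA-pretreated mice, by the interaction term in limma, in 29 genes. The largest of these differences, WT minus CsA on the log2 scale, were Timp1 at 2.21, Sdf2l1 at 2.02, Hmga1, a chromatin protein, at 1.84, Gstm7, a glutathione transferase, at -1.59, and Alpl, alkaline phosphatase, at 1.53. Of 18 alternatives each, 13 ended the call for Timp1 and for Hmga1, 12 for Sdf2l1 and for Alpl, and 9 for Gstm7, the replicate block among them for every gene.

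In 3 lists every WT 24 h library moved one way and both Cn-Ctl 24 h libraries the other, relative to their own 2 h mean, and this difference was not tested. The median log2 difference of glucose uptake, glycolysis and hypoxia genes was 0.16 in Cn-Ctl and -0.17 in WT. For cell cycle and DNA replication genes it was -0.45 and 0.21. For Schwann cell and nerve markers it was -0.053 and -0.57, both negative. The Cn-Ctl 24 h libraries taken singly gave 0.27 and 0.021, the latter near 0. The WT value includes 2 h replicate 2, which stood apart in these markers. Without that library the WT median was -0.16.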

How the results depend on the processing

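The count of 4975 DEGs ranged from 3847 to 5317 over all alternatives, with 4989 in edgeR and 5317 in DESeq2. DEGs of more than 2-fold numbered 1065 and 686 with a pseudocount of 2. The interaction with CsA went from 29 genes to 255 in DESeq2, 13 in edgeR, and 0 after quantile normalization, with the replicate block, or without the trend, the last chosen after seeing the data. When 1 library was left out it ranged from 0 to 157, with 54 and 86 without WT 24 h replicates 1 and 3, 4 without WT 2 h replicate 2, and 0 to 2 without any other except CsA 24 h replicate 3 (157). The Cn-Ctl count of 1063 was 1536 in DESeq2 and 919 in edgeR, and with 1 library left out ranged from 200 (without 24 h replicate 3) to 1227 (without 24 h replicate 2), with 669 and 621 without 2 h replicates 1 and 2. The causes were not tested.

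After quantile normalization the medians of several lists changed sign, to 0.0018 for oxidative phosphorylation, 0.20 for actin cytoskeleton, 0.21 for collagen chains, 0.0060 for TGF-beta genes, 0.092 for smooth muscle markers and 0.0063 for all genes. Cald1 (0.24), Fth1 (0.032) and Sod3 (0.077) did so too. With 1 library left out, the median of adipose markers ranged from -0.14 (without 2 h replicate 1) to 0.55, and that of all genes from -0.019 to 0.0070 (without 2 h replicate 2). For the 295 genes named or covered by the rule, 5315 of 5572 values under an alternative kept direction and call, 164 lost the call and 38 gained one. The sign differed in 55 values of 36 genes, 2 of which, Fth1 and Sod3, had been called.

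Same-numbered 2 h and 24 h libraries had correlations of 0.159, 0.114 and 0.011 between their deviations, so the numbers were not taken to pair the samples. With the replicate block there were 4793 DEGs, 1052 of them over 2-fold, and 1028 in Cn-Ctl.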
